A study of Mus musculus with 2 samples.

Results

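The nuclear genes of the mitochondrial respiratory chain and of ATP synthase were compared between liver metastases and primary tumours of Colon26 cells, a mouse colon carcinoma line. Members were the genes whose current symbol begins with Nduf, Uqcr, Atp5 or Cox followed by a digit, or is Sdha, Sdhb, Sdhc, Sdhd, Cyc1 or Cycs, with a value on both arrays. They numbered 93 of 13506 measured genes. Of these, 38 belonged to complex I, 4 to complex II, 9 to complex III, 25 to complex IV and 16 to complex V, and 1 was cytochrome c. The groups held 80 genes for subunits or their isoforms and 13 for assembly factors, with the supercomplex factor Cox7a2l counted among the latter.

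Cells of the line were injected beneath the rectal mucosa of Balb/c mice, and RNA was taken from 2 liver metastases and 2 primary tumours that grew and were harvested independently. Both groups arose from this 1 line with no other treatment named, and the age of the mice, the time after injection and any removal of host cells were left unstated. Each of 2 two-colour arrays held a liver metastasis labelled with Cy3 and a primary tumour labelled with Cy5, so 1 array was 1 replicate and the dyes were not swapped. The deposited value is the log ratio of both channels, taken as log2. The channel in the numerator is not stated, so values are given as positive or negative and neither side is assigned to the metastases or to the primary tumours. A preference of a probe for 1 dye lies on both arrays alike, and it cannot be told apart from a difference between the tissues. In RNA of whole cell populations, fewer cells of a type and less RNA per cell cannot be told apart either. The table holds ratios and no levels, so the presence of a cell type could not be checked, and no gene can be called abundant or rare.

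Complex I (NADH dehydrogenase) and complex II (succinate dehydrogenase) pass electrons to ubiquinone. Complex III (the cytochrome bc1 complex) passes them to cytochrome c, and complex IV (cytochrome c oxidase) passes them to oxygen. Complexes I, III and IV pump protons, and complex V (ATP synthase) uses the resulting gradient to make ATP. The genes studied here are nuclear, while a few core subunits are encoded by mitochondrial DNA and were not analysed here. Many promoters of these nuclear genes are known targets of the factors NRF1, GABP of the ETS family and YY1, and coactivators of the PGC-1 family raise their activity in many tissues.

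The RefSeq promoter table, on GRCm38.p6, held 77 of the 93 members. It gives the 250 bases before and the 50 bases after each transcription start, with 82 promoters for these 77 genes. The letters GCATGCGC, the core of the NRF1 motif, stood on either strand of 15.9% of these promoters and of 2.71% of all 32851 promoters in the table. The ETS letters CCGGAAG stood in 24.4% of member promoters and in 8.86% of all, and the YY1 letters AAGATGGC in 14.6% and 2.75%. At least 1 of the 3 motifs was found for 37 genes and more than 1 for 8, and 0 promoters had matches of different motifs that overlapped. These shares describe the sequence and are not evidence of binding. The median log ratio was -0.22 in the genes with the NRF1 letters and -0.14 in those without, -0.15 and -0.15 for the ETS letters, and -0.19 and -0.14 for YY1. The 4 promoters below belong to genes named in the results. They were printed because Cycs lay on the positive side, Uqcr11 on the negative side in complex III, and Atp5g2 and Atp5g1 on the negative side in ATP synthase. Each line gives the 250 bases before the start, 5′ to 3′, with matches in capitals.

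Cycs (chr6:50566570-50566819, minus strand): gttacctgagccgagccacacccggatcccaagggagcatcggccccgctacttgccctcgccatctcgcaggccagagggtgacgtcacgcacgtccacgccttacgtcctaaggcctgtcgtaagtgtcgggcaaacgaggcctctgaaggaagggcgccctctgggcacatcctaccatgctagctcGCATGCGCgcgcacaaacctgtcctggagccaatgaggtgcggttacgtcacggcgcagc

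Uqcr11 (chr10:80406822-80407071, minus strand): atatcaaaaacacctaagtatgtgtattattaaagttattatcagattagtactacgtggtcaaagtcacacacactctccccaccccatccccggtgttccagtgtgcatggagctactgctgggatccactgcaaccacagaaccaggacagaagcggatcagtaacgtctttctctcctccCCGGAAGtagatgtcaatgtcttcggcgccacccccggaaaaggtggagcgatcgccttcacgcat

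Atp5g2 (chr15:102671048-102671297, minus strand): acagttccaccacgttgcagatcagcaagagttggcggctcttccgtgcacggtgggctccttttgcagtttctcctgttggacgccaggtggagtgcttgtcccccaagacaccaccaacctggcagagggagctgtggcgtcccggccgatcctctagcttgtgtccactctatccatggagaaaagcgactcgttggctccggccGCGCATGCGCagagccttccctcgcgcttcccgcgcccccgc

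Atp5g1 (chr11:96075632-96075881, minus strand): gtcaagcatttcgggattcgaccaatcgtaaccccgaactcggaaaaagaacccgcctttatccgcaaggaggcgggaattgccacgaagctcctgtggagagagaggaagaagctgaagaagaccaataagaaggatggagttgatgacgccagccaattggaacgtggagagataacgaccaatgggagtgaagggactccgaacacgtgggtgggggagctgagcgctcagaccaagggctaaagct

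In Cycs the capitals mark the NRF1 letters 60 to 53 bases before the start. In Atp5g2 they mark a palindrome 42 to 33 bases before it, which holds the NRF1 letters on both strands. In Uqcr11 they mark the ETS letters 66 to 60 bases before the start, and an NRF1 match that spans the start itself runs past the stretch shown. The Atp5g1 window held none of the 3 motifs. Genes with the NRF1 letters included both Cycs, at a mean log ratio of 0.60, and Atp5g2, at -0.81.

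Over the 93 members, 48 were negative on both arrays, 25 were positive on both and 20 had mixed signs. Negative on both arrays were thus 51.6% of the members, against 38.2% of all genes, and positive on both were 26.9% of the members, against 33.9% of all genes. The median log ratio of the members was -0.15, at -0.18 on array 1 and -0.076 on array 2, and that of all genes was -0.02. Most members stayed close to 0. A mean within 0.5 log2 units of 0 was found for 78 members, or 83.9%, against 78.2% of all genes. Limma's moderated test called 1 member at an adjusted p of 0.05, and it was positive, whereas 2.90% of all genes were called. Without adjustment, 22 members had p under 0.05, 17 negative and 5 positive, and 27.5% of all genes did. With both sides pooled, neither count exceeded what these background shares would give. Of all 13506 genes, 1694 had an unadjusted p under 0.05 on the negative side and 2023 on the positive side. By side, the 17 negative members were a larger share than that, and the 5 positive members a smaller one. The share of members negative on both arrays also stood above its background. A log ratio of at least 1 unit with the same sign on both arrays was met by 1 member, Uqcrq, and by 2.27% of all genes. Across the 93 members the arrays had a Pearson's r of 0.774 and a Spearman's rho of 0.746, against 0.615 and 0.582 across all genes. These describe genes of the same 2 arrays, and genes on 1 array are not independent replicates.

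**Figure D1:**
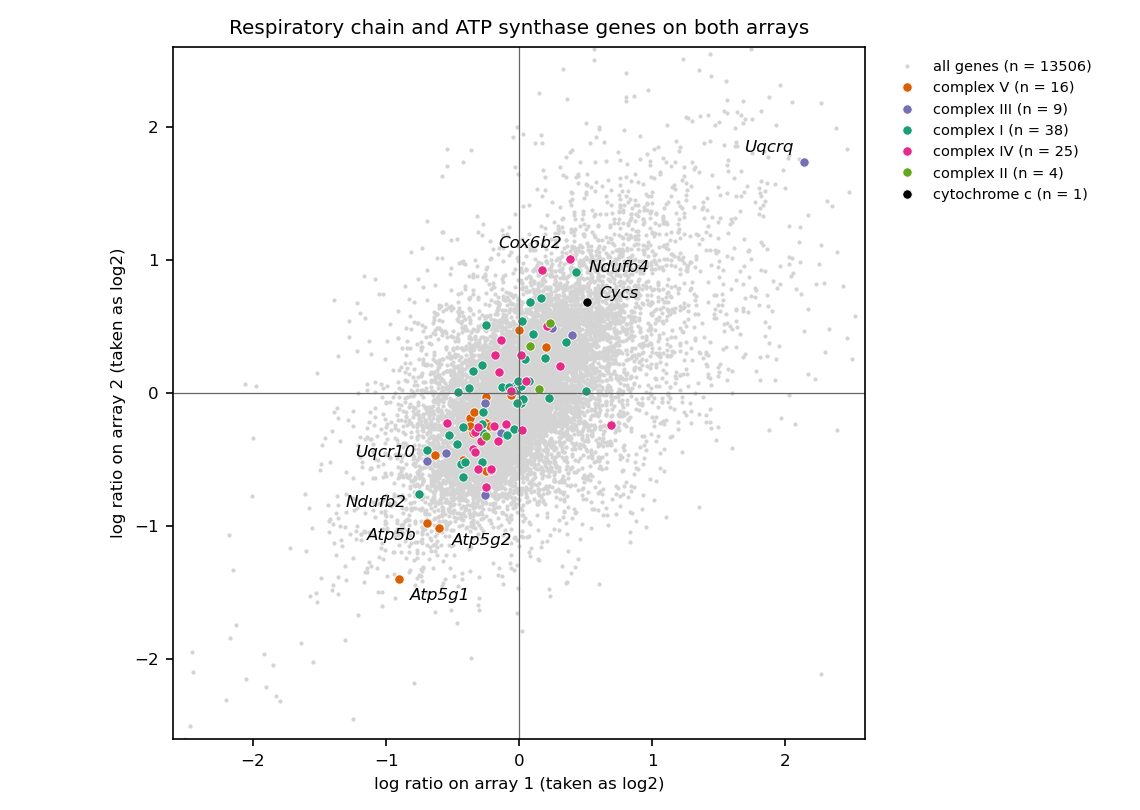
Log ratio on array 1 (x axis) against array 2 (y axis), both taken as log2, for all 13506 genes in grey and the 93 members coloured by complex. Among the members, Uqcrq stands alone at the upper right at 2.14 and 1.74, and Atp5g1 is the lowest at -0.90 and -1.40. The 37 genes outside the axes are not drawn.

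ATP synthase showed the most one-sided pattern of the 5 complexes. Of its 16 measured genes, 14 were negative on both arrays, 1 was positive on both and 1 had a value of 0.00 on array 1. Their median log ratio was -0.29, at -0.34 on array 1 and -0.24 on array 2. None of the 16 passed the adjusted threshold in limma, and 5 had an unadjusted p under 0.05, all of them negative. Of all genes, 27.5% had such a p on either side, and 1694 of 13506 had it on the negative side. The 5 were thus a larger share of the complex than the negative side gave over all genes. Most of the ratios were small, and 12 of the 16 means lay within 0.5 units of 0.

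The c subunit forms the ring that turns in the membrane part, Fo, of ATP synthase. It is encoded by 3 genes, Atp5g1, Atp5g2 and Atp5g3, whose precursors differ in the import sequence and give the same mature protein. Atp5g1 had -0.90 on array 1 and -1.40 on array 2, the most negative mean of all members. This gave -1.15 ± 0.35 (SD, n = 2), with limma's 95% interval at -1.63 to -0.67, and the adjusted p of 0.0514 just missed the threshold. On the scale taken as log2 this is a ratio of 2.22-fold. Atp5g2 had -0.60 and -1.02, with a mean of -0.81 ± 0.30 and an adjusted p of 0.0801 in limma. Atp5g3 had -0.63 and -0.47, with a mean of -0.55 ± 0.11 and an adjusted p of 0.114. All 3 genes for this subunit were therefore negative on both arrays, and Atp5g1 stood in place 77 from the bottom among all genes. Each was read by 1 probe, and whether these probes tell the 3 genes apart was not tested. The difference of Atp5g1 from Atp5g2 was -0.30 on array 1 and -0.38 on array 2. Atp5g2 and Atp5g3 were 0.03 and -0.55 apart, so their order differed between the arrays. These differences between genes were not tested.

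The catalytic head, F1, was negative throughout, in 5 of 5 genes, with a wide range. Atp5b, the catalytic beta subunit, had -0.69 on array 1 and -0.98 on array 2. Its mean was -0.83 ± 0.20 (SD, n = 2), with an adjusted p of 0.0668 in limma. Atp5a1 encodes the alpha subunit, which alternates with beta in equal number in the head. It had -0.06 and -0.02, and a mean of -0.04 ± 0.03 with an interval from -0.42 to 0.35. The beta gene lay below the alpha gene by 0.63 on array 1 and by 0.96 on array 2. Between them came Atp5d, the delta subunit of the central stalk, at -0.46 ± 0.06, Atp5c1, the gamma subunit that forms the rotating shaft, at -0.28 ± 0.13, and Atp5e, the epsilon subunit, at -0.24 ± 0.02.

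The peripheral stalk, which holds the head still, held the exceptions. Atp5h, the d subunit, was positive on both arrays, at 0.20 and 0.34, and Atp5j, coupling factor 6, had 0.00 and 0.47. Neither passed the threshold, with adjusted p of 0.301 and 0.436 in limma. The partner subunits of the same stalk were negative on both arrays. Atp5o, the oligomycin sensitivity protein that joins stalk and head, had -0.25 and -0.59, and Atp5pb, subunit b, had -0.22 and -0.24. The small membrane subunits Atp5j2 (f) and Atp5l (g) had means of -0.33 ± 0.03 and -0.31 ± 0.09 (SD, n = 2). Atp5mpl and Atp5k (e) had -0.24 ± 0.14 and -0.14 ± 0.16. Dmac2l, a factor once named Atp5s and outside the naming rule, had 0.51 and 0.91.

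**Figure D2:**
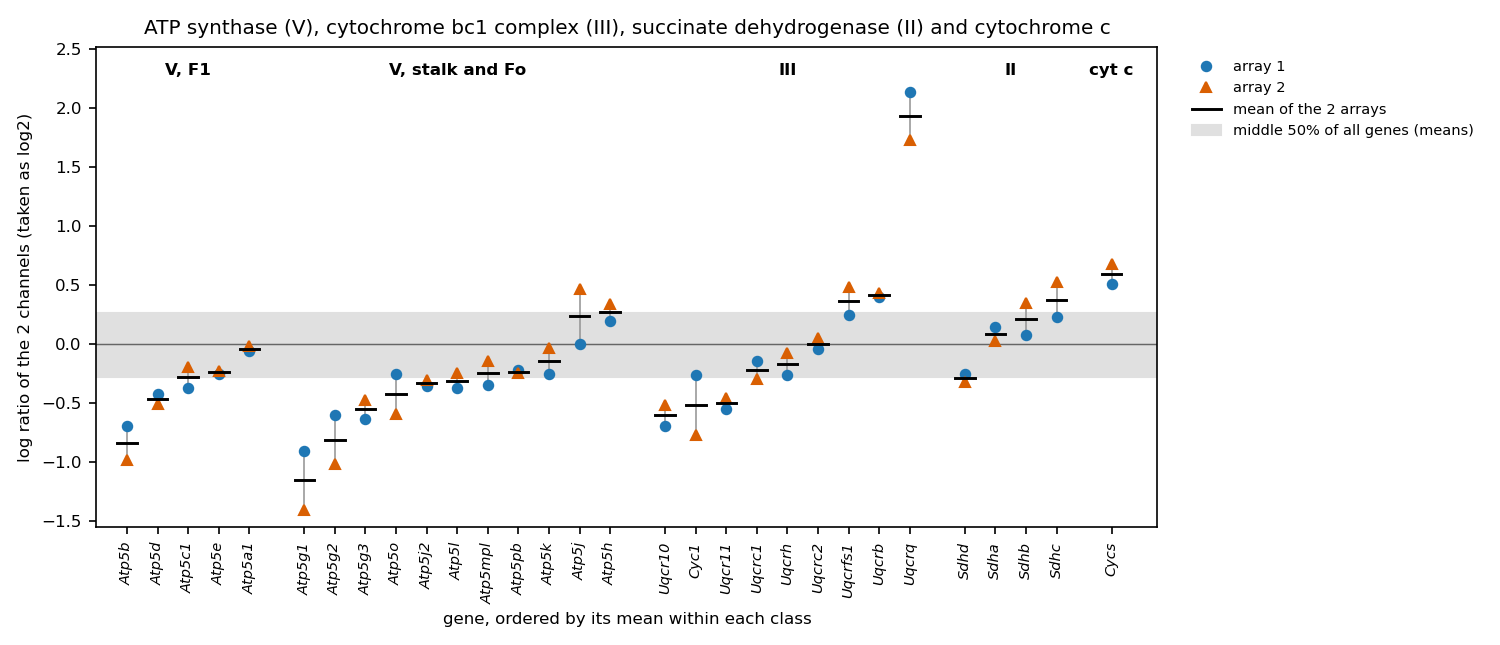
Log ratio, taken as log2, of each gene of ATP synthase, complex III, complex II and cytochrome c on array 1 (circles) and array 2 (triangles), with the mean as a bar and the middle 50% of all gene means in grey. Atp5g1, Atp5b and Atp5g2 lie lowest, at means of -1.15, -0.83 and -0.81, and Uqcrq lies far above the other complex III genes.

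Complex III held both the 1 called member and some of the lower ones. Uqcrq encodes the small ubiquinone-binding protein QP-C, subunit VIII of the complex. It had 2.14 on array 1 and 1.74 on array 2. The mean was 1.94 ± 0.29 (SD, n = 2), with limma's 95% interval at 1.49 to 2.39 and an adjusted p of 0.0282, which on a log2 scale is 3.83-fold. This mean stood in place 28 from the top among all 13506 genes. The call was lost after scaling the arrays to equal spread, at an adjusted p of 0.0538 in limma, after quantile normalization, at 0.0641, and without moderation, at 0.464. The ratio itself moved between 1.94 and 1.96 in the alternatives that used both arrays.

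No other complex III gene came near that value. Uqcrb, another ubiquinone-binding subunit, had 0.40 and 0.43, and Uqcrfs1, the Rieske iron-sulfur protein that takes electrons from ubiquinol, had 0.25 and 0.49. Uqcrq lay above Uqcrb by 1.74 and 1.30 on the 2 arrays. On the negative side, Uqcr10 had -0.69 and -0.51, and Uqcr11 had -0.55 and -0.45. Both are small subunits without a cofactor. Cyc1, the cytochrome c1 that hands electrons to cytochrome c, had -0.26 and -0.77. Their means were -0.60 ± 0.12, -0.50 ± 0.07 and -0.51 ± 0.36 (SD, n = 2), with adjusted p of 0.101, 0.126 and 0.166 in limma. The large core proteins Uqcrc1 and Uqcrc2 had -0.22 ± 0.11 and 0.01 ± 0.07, and the hinge protein Uqcrh had -0.17 ± 0.13. Both arrays were negative for 5 of the 9 genes and positive for 3, and the median of -0.17 hid a range from -0.60 to 1.94. By limma, 1 of the 9 was called, beside 2.90% of all genes. Before adjustment 5 had p under 0.05 in limma, 3 negative and 2 positive, beside 27.5% of all genes.

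Uqcrq was read by 1 probe, as were all members except Ndufs5. The specificity of the probe was not tested. In the GRCm38.p6 gene table its neighbours are Leap2 and Gdf9, which were looked up after the value of Uqcrq was seen. Leap2, a peptide made in liver and gut, had 0.30 and 0.61, and Gdf9, an oocyte growth factor, had 0.03 and -0.34. Neither passed the threshold, with adjusted p of 0.165 and 0.578 in limma.

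Cytochrome c itself, the mobile carrier between complexes III and IV and a trigger of apoptosis when released, was positive on both arrays. Cycs had 0.51 and 0.68, with a mean of 0.60 ± 0.12 (SD, n = 2) and an adjusted p of 0.102 in limma. It lay above its electron donor Cyc1 by 0.77 on array 1 and by 1.45 on array 2, a difference that was not tested.

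Complex II was the 1 complex with a positive median, 0.15 over 4 genes. Sdhc, a membrane anchor, had 0.23 and 0.53, and Sdhd, the other anchor, had -0.25 and -0.32. These 2 partners of the same membrane domain lay on opposite sides, 0.48 apart on array 1 and 0.85 on array 2. The iron-sulfur subunit Sdhb had 0.08 and 0.35, and the flavoprotein Sdha, which oxidizes succinate, had 0.15 and 0.03. By limma, 0 of the 4 passed, also without adjustment, beside 2.90% and 27.5% of all genes.

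Complex I was spread about 0. Its 34 subunit genes had a median of -0.04, and both arrays were negative for 14, positive for 8 and of mixed sign for 12. Core subunits carry the flavin and the iron-sulfur clusters. Ndufv1, which binds NADH and flavin, had -0.02 and -0.07, Ndufv2 had 0.01 and 0.05, and Ndufs1 had -0.01 and 0.09. Ndufs7 and Ndufs8, on the route to ubiquinone, had means of -0.21 ± 0.09 and -0.20 ± 0.16 (SD, n = 2). Ndufs3 had 0.16 and 0.72, and its interval from -0.06 to 0.94 included 0. The 6 measured core genes had a median of -0.01.

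The accessory subunits, which surround the core and stabilize it, had the wider values. Ndufb2 was the lowest of complex I, with -0.75 on array 1 and -0.76 on array 2. Its mean was -0.75 ± 0.01 (SD, n = 2), the adjusted p in limma was 0.0687, and the arrays hardly differed. Ndufv3, beside the NADH site, had -0.69 and -0.42, Ndufb9 had -0.42 and -0.63, and Ndufc2 had -0.44 and -0.53. They had adjusted p of 0.118, 0.124 and 0.130 in limma. At the other end, Ndufb4 had 0.43 and 0.91, with a mean of 0.67 ± 0.34 and an adjusted p of 0.110. Ndufb3 had 0.08 and 0.69. Both arrays were negative for 11 of 28 accessory genes and positive for 6, and 11 had mixed signs. None of them passed limma's adjusted threshold, and 7 fell under 0.05 before adjustment, not above the 27.5% of all genes.

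The remaining accessory genes filled the range between these. Ndufa8, Ndufa12, Ndufb8, Ndufa11, Ndufs6, Ndufa7 and Ndufb5 were negative on both arrays, with means from -0.43 ± 0.06 for Ndufa8 to -0.15 ± 0.16 for Ndufb5. Ndufa1, Ndufs5, Ndufc1 and Ndufa5 were positive on both, with means from 0.08 ± 0.02 for Ndufa5 to 0.28 ± 0.37 for Ndufa1. Mixed signs were found for Ndufa2, Ndufa3, Ndufa6, Ndufa9, Ndufa10, Ndufa13, Ndufab1, Ndufb7, Ndufb10, Ndufb11 and Ndufs4. Ndufab1, the mitochondrial acyl carrier protein, had the widest gap among them, at -0.25 and 0.51. Ndufs4, an accessory subunit whose loss causes complex I deficiency, had -0.02 and 0.02. The 2 probes of Ndufs5 had -0.13 and 0.22 on array 1, and 0.04 and 0.47 on array 2. Complex I has a peripheral arm in the matrix, where NADH is oxidized, and a membrane arm that pumps protons. A grouping by arm, made after the values were seen, gave medians of -0.09 over 15 peripheral genes and -0.03 over 18 membrane genes. Ndufab1 was placed in neither arm.

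Assembly factors do not stay in the finished complex. Of the 4 measured for complex I, Ndufaf1, Ndufaf5 and Ndufaf7 were positive on both arrays, at means of 0.23 ± 0.05, 0.27 ± 0.25 and 0.37 ± 0.02 (SD, n = 2). Ndufaf4 was negative, at -0.41 and -0.52. Its mean was -0.46 ± 0.08. None of the 4 passed the threshold, with a lowest adjusted p of 0.142 in limma, beside 2.90% of all genes called. Before adjustment 1 had p under 0.05 in limma, near the 27.5% of all genes.

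**Figure D3:**
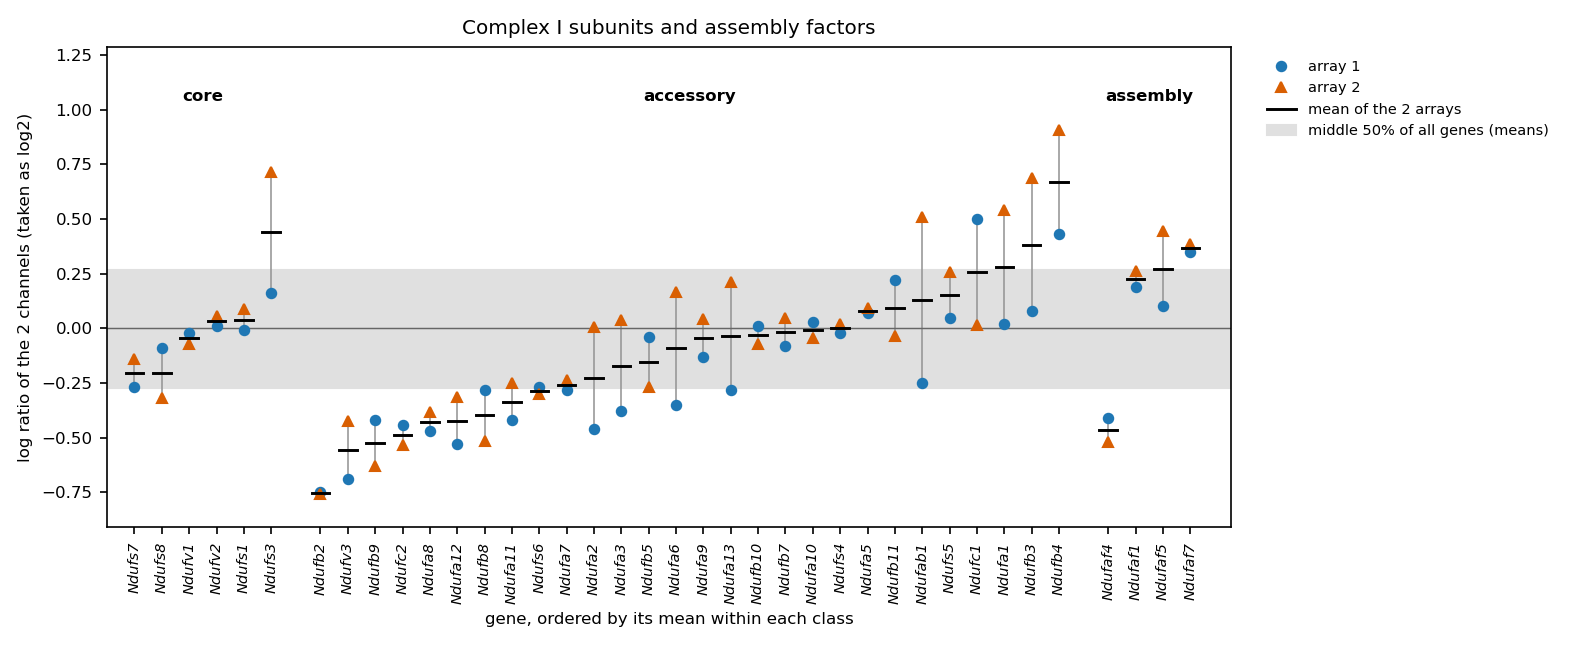
Log ratio, taken as log2, of each complex I core subunit, accessory subunit and assembly factor on array 1 (circles) and array 2 (triangles), with the mean as a bar and the middle 50% of all gene means in grey. The accessory subunits run from Ndufb2 at -0.75 to Ndufb4 at 0.67, and 5 of the 6 core subunits lie inside the grey band.

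In complex IV, the widely expressed subunits leaned to the negative side with small ratios. Of 11, 7 were negative on both arrays, 1 was positive on both and 3 had mixed signs, with a median of -0.26. Cox5b, a zinc-binding subunit, had -0.33 and -0.45, and Cox7b had -0.33 and -0.29. Cox6b1, which faces cytochrome c, had -0.54 and -0.22, and Ndufa4, named for complex I and now placed in complex IV, had -0.21 and -0.57. Cox8a, Cox7c and Cox4i1 followed with means of -0.28 ± 0.04, -0.26 ± 0.14 and -0.22 ± 0.04 (SD, n = 2). Cox5a was positive on both arrays, at 0.01 and 0.28, while Cox6a1, Cox6c and Cox7a2 had mixed signs and means between -0.02 and 0.05. By limma, 0 of the 11 passed, also without adjustment, beside 2.90% and 27.5% of all genes.

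Isoforms that replace a common subunit in some tissues or conditions covered a wider range, with means from -0.48 to 0.69. By limma, 0 of the 5 measured passed, beside 2.90% of all genes. Before adjustment 3 had p under 0.05 in limma, 2 negative and 1 positive, beside 27.5% of all genes. Cox4i2, an isoform of subunit 4 found in lung and induced by low oxygen, had -0.25 and -0.71, against -0.19 and -0.25 for the common isoform Cox4i1. Ndufa4l2, a paralogue of Ndufa4 that low oxygen induces, had -0.31 and -0.57, and Ndufa4 itself -0.21 and -0.57. Their difference was -0.10 on array 1 and 0.00 on array 2, so both genes gave nearly the same ratios. Cox6b2, known from testis, lay on the opposite side from Cox6b1. It had 0.38 and 1.01, with a mean of 0.69 ± 0.44 (SD, n = 2) and an adjusted p of 0.122 in limma, and it exceeded Cox6b1 by 0.92 and 1.23. Cox7b2, another testis isoform, had 0.69 and -0.24, against -0.33 and -0.29 for Cox7b. Cox7a2l, which joins complexes III and IV in supercomplexes, had -0.10 and -0.23, beside -0.18 and 0.29 for Cox7a2. None of these differences between isoforms was tested.

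Cox8b, the isoform of heart, skeletal muscle and brown fat, had 0.21 and 0.51, against -0.31 and -0.25 for Cox8a. Among 9 measured of 13 markers of skeletal and cardiac muscle, 5 were positive and 2 negative on both arrays, with a median of 0.18. Actn3, an actinin of fast muscle fibres, was called at 1.27 ± 0.28 and Tnnt2, cardiac troponin T, at -2.49 ± 0.02 (limma adjusted p of 0.0438 and 0.0200). By limma, 2 of the 9 muscle markers were thus called, beside 2.90% of all genes. Before adjustment 4 had p under 0.05 in limma, 1 negative and 3 positive, beside 27.5% of all genes. Of 7 markers of brown and white adipocytes, 5 were measured, and both arrays were negative for 2, positive for 1 and mixed for 2, with a median of -0.22. Negative on both arrays were Plin1, at -0.15 and -0.78, and Retn, at -0.56 and -0.02. The fatty acid binding protein Fabp4 was positive, at 0.28 and 0.84. Mixed signs were found for the brown fat uncoupling protein Ucp1, at 0.03 and -0.47, and for Cidea, at -0.20 and 0.80. None of the 5 passed limma's adjusted threshold, beside 2.90% of all genes. Before adjustment 1 had p under 0.05 in limma, on the positive side, beside 27.5% of all genes. The part of muscle or fat cells in the value of Cox8b was not tested. Of 12 hepatocyte markers, 9 were measured, 4 negative and 2 positive on both arrays, with a median of -0.03. That median hid a range from Fah at -0.95 ± 0.50 to Ttr at 0.80 ± 0.06 (SD, n = 2). By limma, 0 of the 9 passed. Before adjustment 4 had p under 0.05 in limma, 2 negative and 2 positive, beside 27.5% of all genes. The part of hepatocytes in the ratios of the members was not tested. Cox6a2, the muscle isoform of subunit 6a, had a value on array 2 only, at -0.37, and Cox8c had none.

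The 9 measured assembly and supercomplex genes of complex IV had a median of -0.13. Of these, 0 passed by limma, also without adjustment, beside 2.90% and 27.5% of all genes. Cox10, which makes the heme A precursor, had -0.29 and -0.36, and Cox15, which completes heme A, had 0.02 and -0.27. Cox14 and Cox18, which act on the newly made catalytic or second subunit, had means of -0.38 ± 0.05 and -0.39 ± 0.26 (SD, n = 2). Of the genes that deliver copper, Cox17 had -0.14 and 0.40, Cox19 had 0.31 and 0.20, and Cox11 had 0.05 and 0.09. Cox20, a chaperone of the second subunit, had 0.17 and 0.92.

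**Figure D4:**
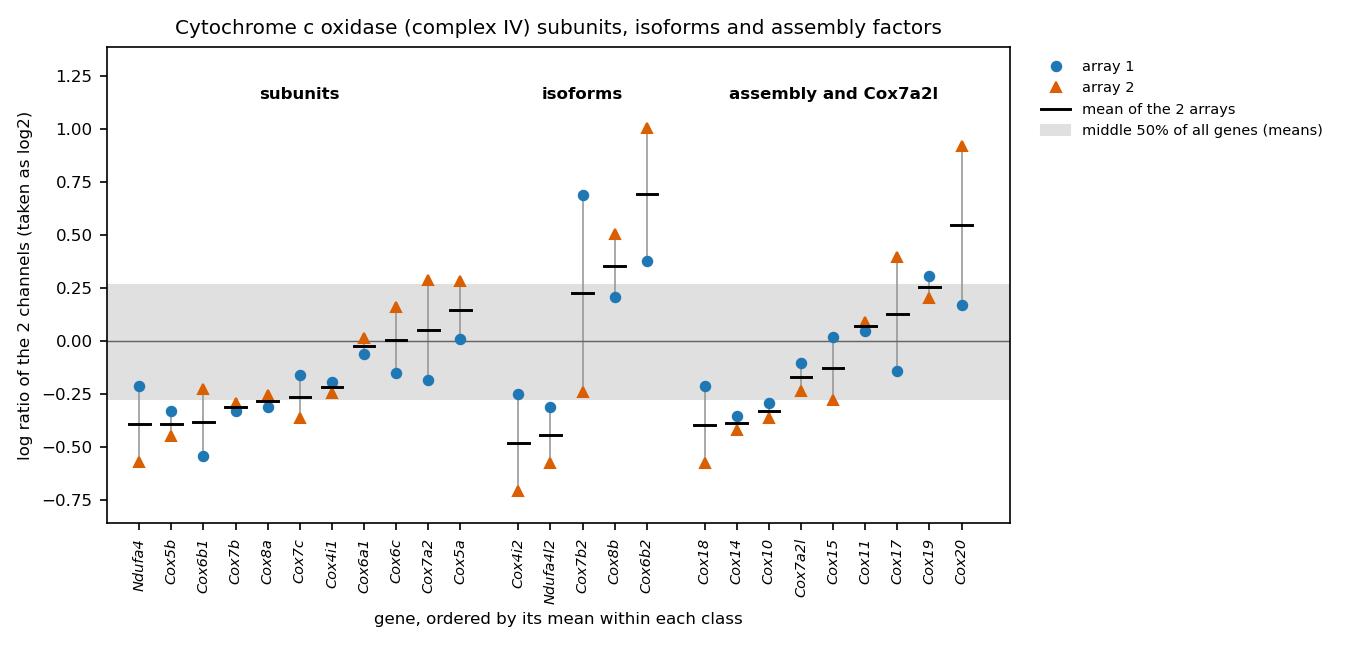
Log ratio, taken as log2, of each complex IV subunit, tissue or condition isoform and assembly factor on array 1 (circles) and array 2 (triangles), with the mean as a bar and the middle 50% of all gene means in grey. The isoforms are spread from Cox4i2 at -0.48 to Cox6b2 at 0.69, a wider range than the common subunits.

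Genes that work with the chain but lie outside the naming rule were examined in 4 lists. Of 33 further assembly factors, 26 were measured, 8 negative and 9 positive on both arrays, with a median of -0.03. Bcs1l, which inserts the Rieske protein into complex III, had -0.93 and -1.04. Its mean of -0.99 ± 0.08 (SD, n = 2) was called at an adjusted p of 0.0479 in limma. It was the 1 call in the 4 lists, beside 2.90% of all genes called. The call lay at the threshold and was lost in all 6 alternative fits, with adjusted p from 0.0517 to 0.463. Bcs1l was thus negative while its client Uqcrfs1 was positive on both arrays. Lrpprc, which stabilizes mitochondrial messenger RNAs, had -0.57 and -0.58, and Sdhaf4, an assembly factor of complex II, had 0.62 and 0.92. They had adjusted p of 0.103 and 0.0782.

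Genes that make ubiquinone or feed electrons into it lay mostly on the positive side, opposite to ATP synthase. Of 20 listed, 18 were measured, 11 positive and 2 negative on both arrays, beside 33.9% and 38.2% of all genes, and the median was 0.34. In electron transfer from fatty acid oxidation, Etfdh had 0.88 and 0.95 and Etfa had 0.60 and 0.62, whereas Etfb, the partner of Etfa in the same flavoprotein, had 0.31 and -0.09. Etfdh had a mean of 0.92 ± 0.05 (SD, n = 2) and an adjusted p of 0.0527 in limma, and Etfa had 0.61 ± 0.01 and 0.0939. Prodh, which oxidizes proline, had 0.61 and 0.59, and Sqor, which oxidizes sulfide, had 1.88 and 0.49. Gpd2, the glycerol phosphate dehydrogenase, and Coq4 were negative on both arrays, at means of -0.40 ± 0.13 and -0.25 ± 0.01. None of the 18 passed limma's adjusted threshold, and 8 fell under 0.05 before adjustment, 7 positive and 1 negative, beside 27.5% of all genes.

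The carriers and regulators were mixed. Of 11 measured genes of ATP export, phosphate import and uncoupling, both arrays were negative for 4 and positive for 3. Slc25a4, an exchanger of ADP and ATP found in muscle and heart, had -0.45 and -0.80, while Slc25a5, its widely expressed counterpart, had 0.21 and -0.06. The phosphate carrier Slc25a3 had -0.05 and 0.21. Among 15 regulators of mitochondrial biogenesis, 5 were negative and 6 positive on both arrays, with a median of -0.03. Ppargc1a, the coactivator PGC-1 alpha, had 0.91 and 1.76, with a mean of 1.33 ± 0.60 (SD, n = 2) and an adjusted p of 0.0599 in limma. Of 6 alternative fits it passed in the one on probes, where the lowest adjusted p among its probes was 0.0488 in limma. That p belongs to a single probe and not to the mean. Ppargc1b, a relative of Ppargc1a, lay on the other side at -0.39 and -0.53. Gabpa, the ETS factor named above, had -0.55 and -0.56, and Nrf1 had 0.09 and -0.21. None passed limma's adjusted threshold in either list, and 2 carriers and 4 regulators fell under 0.05 before adjustment, neither above the 27.5% of all genes.

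**Figure D5:**
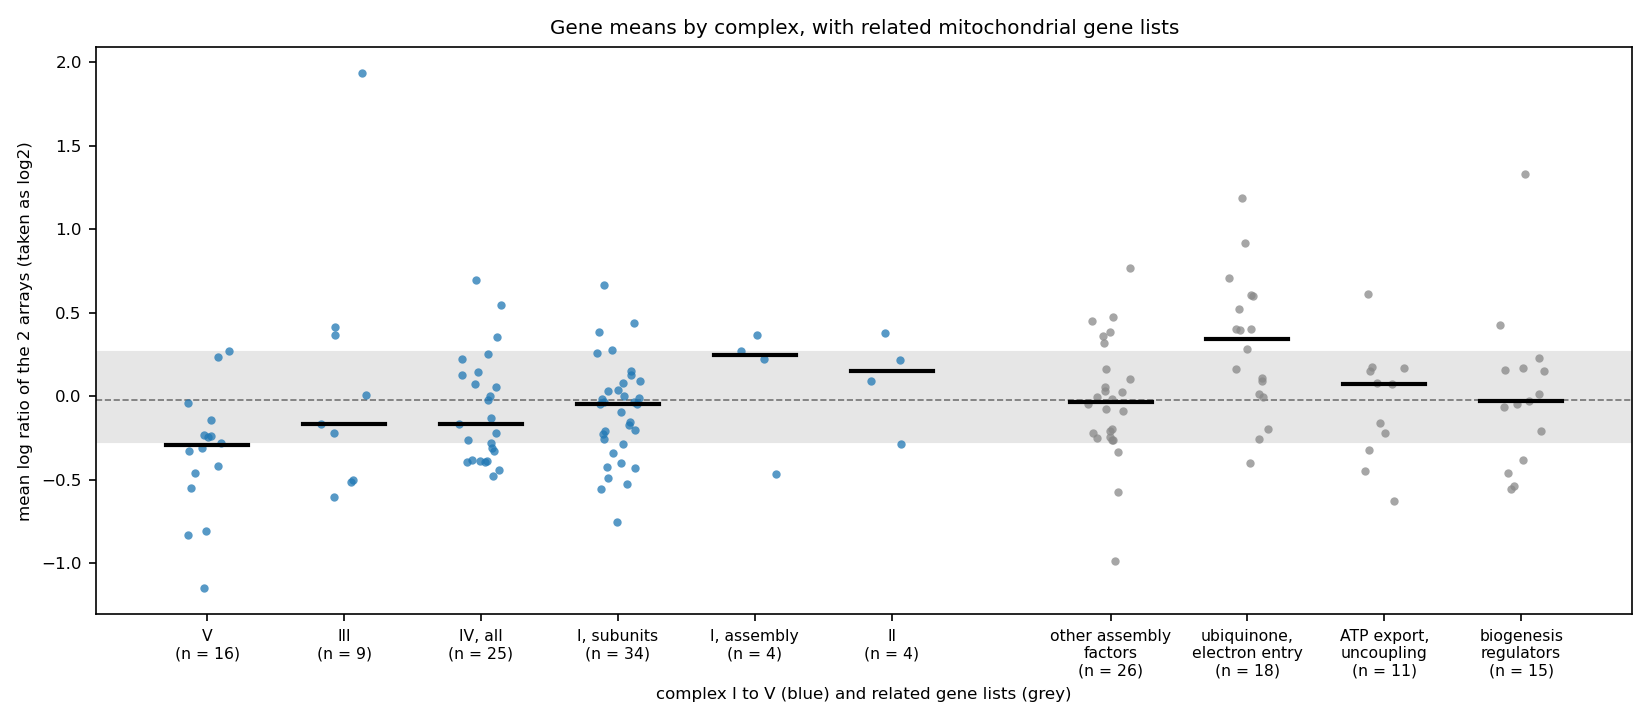
Mean log ratio over both arrays, taken as log2 (y axis), of each gene by complex (blue) and in the 4 related lists (grey), with the median of each set as a bar, the median of all genes as a dashed line and the middle 50% of all genes as a band. The medians run from -0.29 for complex V to 0.34 for ubiquinone and electron entry, and Cycs is not drawn.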

How the data were processed

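Gene expression was compared on 2 two-colour arrays, each with 1 liver metastasis (Cy3) and 1 primary tumour (Cy5), per the labels. Each probe has 1 deposited value per array, a log ratio made by the authors and taken here as log2. Its log base, numerator, background correction and normalization were not given by the sources used here. Values on array 1 are written to 2 decimals. Both arrays had a value for 18837 of 23473 probes. Platform symbols were updated through the GRCm38.p6 RefSeq gene table, and probes of a gene were averaged, which gave 13506 genes. Atp5s and Cox4nb, now Dmac2l and Emc8, therefore fell outside the rule, and Cox6a2 and Cox8c lacked a value on both arrays, which left 93 of 95 matching symbols. The mean of each gene was tested against 0 across all genes with limma 3.58.1 in R 4.3.3 (lmFit, eBayes), with 1 residual and 4.06 prior degrees of freedom and Benjamini-Hochberg adjustment at 0.05. The number of arrays limits the precision. The fit was tested on simulated data. Any member may be named. Those past the threshold were chosen for fuller statistics. So were up to 4 per complex and side with 1 sign on both arrays, ranked by the array with the smaller ratio. For some of these only the array values or the mean and SD are printed. The members and lists were chosen with earlier results of these data known. Figures used matplotlib 3.10.9.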

Additional observations from a re-analysis of the deposited data

How the results depend on the processing

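The number of called members was 1, and it stayed 1 after centring each array on its median, in the fit on probes, with a minimum fold of 1.2 and among subunits only. It was 0 after scaling the arrays to equal spread, 0 after quantile normalization and 0 with the ordinary t in limma's fit, in which 51, 4 and 0 of all genes were called and 24, 25 and 8 members had an unadjusted p under 0.05. The cause was not tested, except that the ordinary t has 1 residual degree of freedom. With all 93 members, the 48 negative on both arrays became 45 to 48 under the alternatives that used both arrays. The 25 positive on both became 25 to 27. Among the 80 subunit genes alone, 43 were negative on both arrays, or 53.8%, and 19 positive, or 23.8%. With 1 array left there is no test and fewer signs need to match. The count of positive members was then 40 without replicate 1 and 30 without replicate 2, and the median was -0.076 and -0.18, beside -0.15 with both. The signs of the 33 members and 29 other genes examined in this way did not turn under any of these alternatives. These genes were chosen among those with 1 sign on both arrays, so leaving out an array could not turn them. The ordinary t and the minimum fold left the means unchanged. No paired analysis was possible because each value is already a ratio within 1 array and the arrays form 1 group. The table holds no signal over background, so its effect on dim probes was not examined.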
